A study of Mus musculus with 40 samples.

Results

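The expression of Trp53, the gene of the p53 tumour suppressor, and of 9 genes known as p53 targets was followed in mice that lack Nampt in hepatocytes (HNKO). The 10 genes (Trp53, Cdkn1a, Mdm2, Ccng1, Bax, Gdf15, Trp53inp1, Phlda3, Zmat3 and Sesn2) were picked by name out of the 55487 genes counted, and all 10 were among the 20297 genes with enough counts to be tested. HNKO mice carried Nampt fl/fl alleles and Alb-Cre+/-, whose albumin promoter drives Cre in hepatocytes, and the WT mice were floxed littermates. All were females of the C57BL/6JBomTac background on the purified control diet (PD), 9 weeks old at the start of feeding per the study's methods, and whole livers were taken after 3, 6, 12 or 21 days. The labels give these days as the age of the mice. Total RNA was sequenced after removal of rRNA. The WT groups held 5, 4, 5 and 5 libraries and the HNKO groups 5, 5, 6 and 3 at days 3, 6, 12 and 21, with 1 library per mouse, and 2 further HNKO libraries of day 21 that the submitters described as failing quality control were left out.

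p53 is a transcription factor that MDM2 normally keeps at a low level by marking it for degradation. After DNA damage and other stress p53 escapes from MDM2, binds DNA and raises the transcription of genes that halt the cell cycle, start apoptosis or feed back on p53 itself, so that its activity is seen in its targets more than in its own mRNA. NAMPT makes the NAD precursor used by sirtuins and by the PARP enzymes of DNA repair, and the p21 protein made from Cdkn1a is a known brake on the division of hepatocytes.

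The p53 protein binds pairs of a 10-base consensus motif. An exact match to that motif on either strand was found in the promoter window (250 bases before to 50 bases after a RefSeq start, GRCm38.p6) of 5 of the 8 members that had a window, which were Trp53, Cdkn1a, Mdm2, Ccng1 and Bax. Of all 27025 genes with a window 9.55% held one, and 8.36% of all 32851 windows did. The motif reads the same on both strands, so each match is counted once. The stretch of 250 bases before the upstream of 2 Cdkn1a starts is shown because it held the motif at 2 places, as did 0.359% of all windows. For the 4 other genes 60 bases around the motif are shown. Capitals mark the motif.
Cdkn1a, chr17:29090729-29090978, plus strand: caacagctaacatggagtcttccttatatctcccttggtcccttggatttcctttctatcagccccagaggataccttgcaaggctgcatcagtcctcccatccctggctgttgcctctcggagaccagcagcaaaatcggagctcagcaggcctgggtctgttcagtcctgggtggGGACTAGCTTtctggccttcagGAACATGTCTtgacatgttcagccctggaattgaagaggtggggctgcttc
Trp53, chr11:69580259-69580318, plus strand: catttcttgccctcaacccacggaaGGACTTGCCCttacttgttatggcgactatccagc
Mdm2, chr10:117710910-117710969, minus strand: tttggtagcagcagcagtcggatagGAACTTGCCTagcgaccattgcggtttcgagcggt
Ccng1, chr11:40755437-40755496, minus strand: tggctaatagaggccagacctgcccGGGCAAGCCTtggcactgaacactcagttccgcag
Bax, chr7:45467065-45467124, minus strand: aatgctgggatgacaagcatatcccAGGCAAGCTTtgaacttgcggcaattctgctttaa
The motif lay 73 to 64 and 51 to 42 bases before the upstream start of Cdkn1a. It lay 75 to 66 bases before the start of Trp53, 186 to 177 before that of Mdm2, 185 to 176 before that of Ccng1 and 201 to 192 before that of Bax. No match was found in the windows of Phlda3, Sesn2 and Gdf15, or in the window of the downstream start of Cdkn1a (chr17:29093519-29093818). These are matches of letters in a short window, and binding was not measured.

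The targeted gene and the depth were checked first. In 18 of 19 HNKO libraries the level of Nampt was below that of all WT libraries of its day, at a mean of 9.57 against 17.1 in WT (FPKM, counts per kilobase of exon scaled to library size, n = 19 each). Nampt mRNA of cells that do not express Cre, and transcripts of the recombined allele, are counted too. The 38 libraries held 16151037 to 64181492 counts (median 26466478.5). Markers of several liver cell types differed between the genotypes. The summed level of 7 bile duct and progenitor markers was 41.9 to 60.8 CPM (counts scaled to library size) in the WT libraries and 118.5 to 763.9 CPM in the HNKO libraries, and over the mean of the 4 days 6 of these 7 markers, 6 of 7 stellate cell and fibroblast markers and 4 of 8 macrophage and leukocyte markers were higher, while 3 of 8 hepatocyte markers (Alb, Ttr and Cyp2e1) and 1 of 6 endothelial markers (Kdr) were lower. Of all tested genes 19.2% were higher and 17.3% lower in that comparison, and the endothelial count is near that share. The hepatocyte markers remained by far the most abundant, at 68930 CPM or more in sum in each library, and no marker was at 0 in any library except Cftr in 1 library. In whole liver RNA, a change in the share of a cell type and a change in RNA per cell cannot be told apart, and the part of other cell types in the results below was not tested.

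Per length of transcript, Trp53inp1 and Ccng1 were the most abundant members in WT livers, at 24.2 ± 7.6 and 17.7 ± 1.62 FPKM (mean ± SD, n = 19). They were followed by Gdf15 (9.72 ± 5.12 FPKM), Mdm2 (7.32 ± 0.711 FPKM), Bax (5.84 ± 0.575 FPKM), Trp53 (3.34 ± 0.356 FPKM) and Sesn2 (3.10 ± 0.600 FPKM). Cdkn1a (0.837 ± 0.7096 FPKM), Zmat3 (0.627 ± 0.157 FPKM) and Phlda3 (0.564 ± 0.236 FPKM) were the lowest. Neighbours in this order overlapped within 1 SD for Trp53inp1 and Ccng1, Gdf15 and Mdm2, Trp53 and Sesn2, Cdkn1a and Zmat3, and Zmat3 and Phlda3. Of the 4 genes that were higher in HNKO livers over all days, 3 came from the low end of this order, and the FPKM of Phlda3 and Cdkn1a rose to 1.59 ± 0.957 and 1.84 ± 1.48 in HNKO (n = 19). Counts were small for these genes, with 11 to 46 counts of Phlda3 and 11 to 381 counts of Cdkn1a per WT library.

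Over the mean of the 4 daily differences, 4 of the 10 genes were higher in HNKO than in WT livers and none was lower by edgeR's quasi-likelihood test with Benjamini-Hochberg adjustment over all tested genes. These were Phlda3, Cdkn1a, Zmat3 and Bax, with folds of 2.95, 2.34, 1.41 and 1.31. Of all tested genes 36.4% were called in this comparison, 19.2% as higher, and 17.3% as lower, so that 4 called genes of 10 is close to the share of the whole transcriptome. The median log2 fold change of the 10 genes was 0.10, against -0.01 for all tested genes. At single days, 0, 3, 1 and 1 of the 10 genes were called at days 3, 6, 12 and 21, all as higher, where 4.66%, 12.8%, 7.82% and 3.12% of all tested genes were called, and 2.95%, 8.42%, 4.56% and 2.21% as higher. At day 3 the unadjusted p was under 0.05 for 4 genes (Cdkn1a, Bax, Phlda3 and Zmat3) by edgeR, as for 20.9% of all tested genes, and DESeq2 called 1 gene (Zmat3). Of the 5 calls at single days 3 were of Phlda3. Trp53 itself was called at none of the days.

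**Figure D1:**
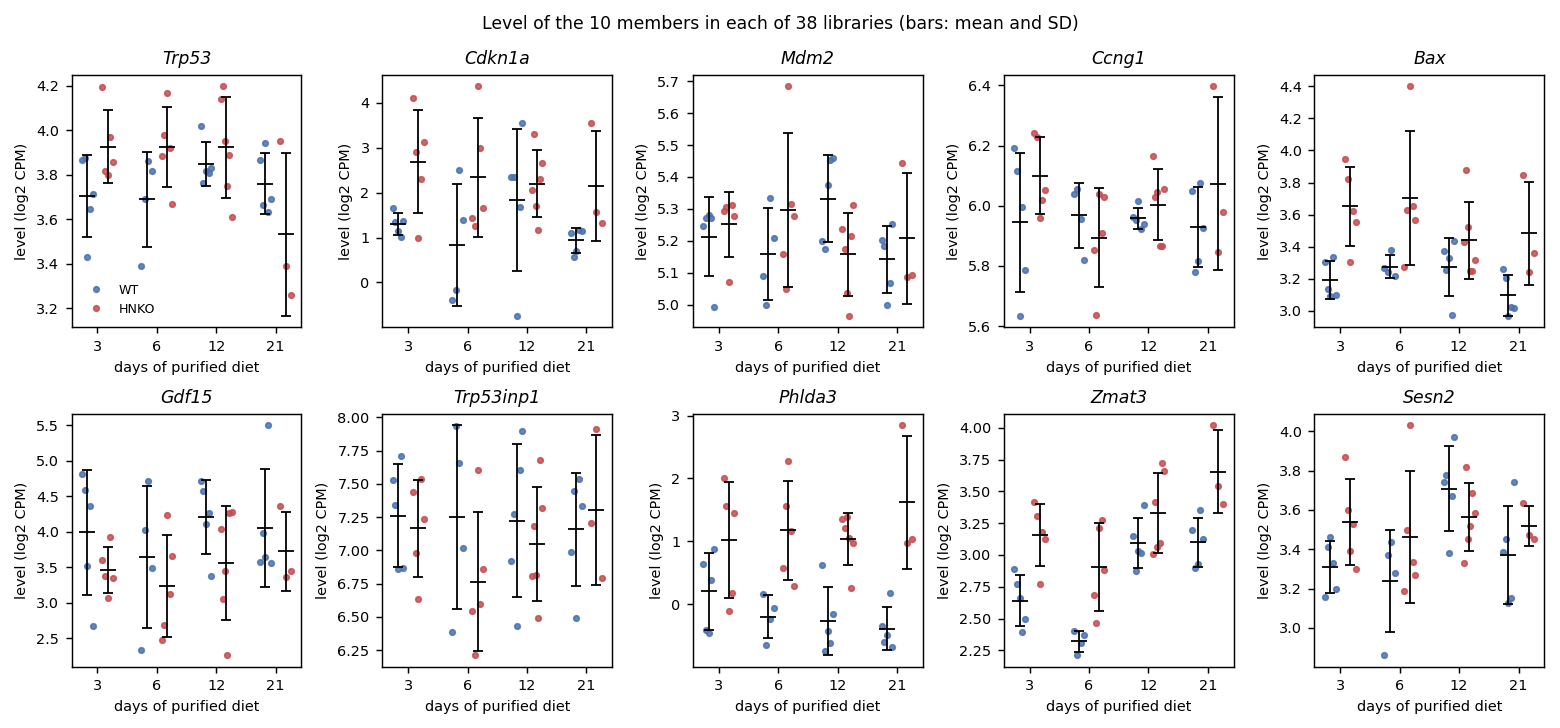
Level of each of the 10 genes (log2 CPM, vertical axis) in each of 38 libraries by days of purified diet (horizontal axis), with WT in blue and HNKO in red, and black bars for the mean and SD of each group. Phlda3 and Zmat3 of HNKO lie above all WT libraries at days 6 and 21, whereas the points of Mdm2, Ccng1 and Trp53inp1 overlap at each day.

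**Figure D2:**
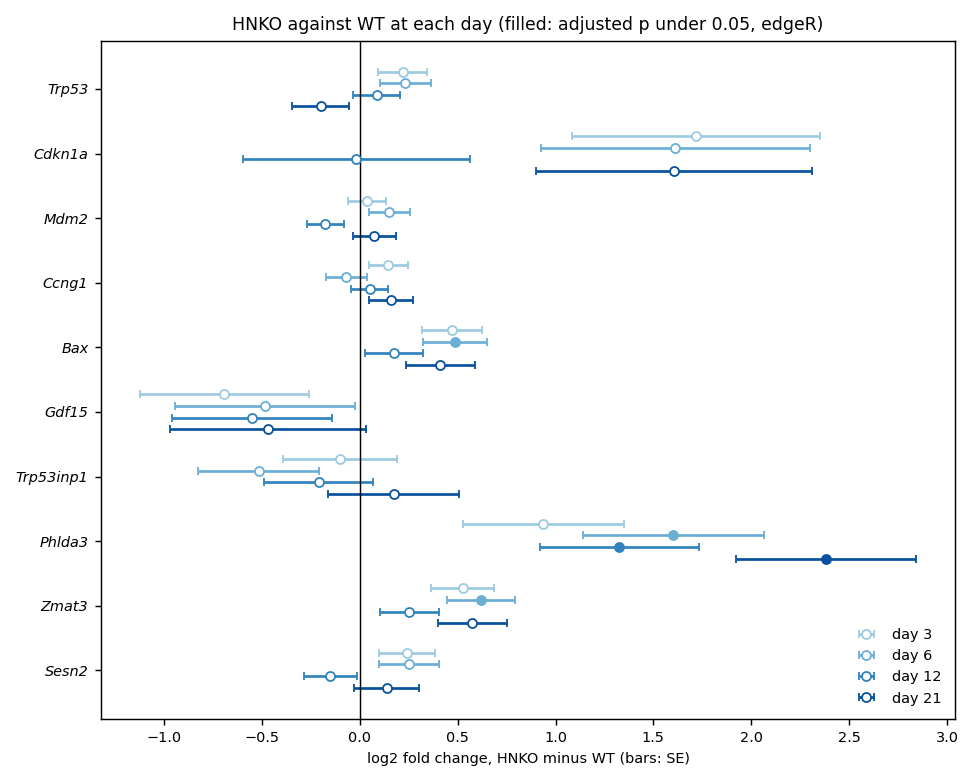
Log2 fold change of HNKO against WT (horizontal axis, bars are SE) of each gene at days 3, 6, 12 and 21 (light to dark blue), with filled points for an adjusted p under 0.05 in edgeR. The 5 filled points are Phlda3 at days 6, 12 and 21 and Bax and Zmat3 at day 6, and the points of Gdf15 lie below 0 at all 4 days.

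Phlda3 encodes a small pleckstrin homology protein that keeps AKT from the membrane and so favours apoptosis. It was the member with the largest difference over the mean of the days and with the most calls at single days, although at days 3 and 6 the log2 fold change of Cdkn1a was larger. At day 3 its level was 0.64, -0.41, -0.46, 0.38 and 0.88 log2 CPM in the 5 WT libraries and 2.0, 1.56, -0.10, 0.18 and 1.44 log2 CPM in the 5 HNKO libraries. At day 6 it was 0.15, -0.65, -0.23 and -0.06 log2 CPM in WT and 0.57, 1.55, 2.28, 1.16 and 0.29 log2 CPM in HNKO. The genotypes overlapped at day 3, where 3 of 5 HNKO libraries were above every WT library, and did not overlap at day 6. At day 12 the WT libraries had 0.62, -0.74, -0.43, -0.62 and -0.16 log2 CPM and the 6 HNKO libraries lay between 0.25 and 1.38 log2 CPM (median 1.13). At day 21 the WT libraries had -0.36, -0.61, -0.49, 0.18 and -0.69 log2 CPM and the 3 HNKO libraries 2.85, 0.98 and 1.03 log2 CPM. Only 1 HNKO library of day 12 fell within the WT range of that day, and the genotypes did not overlap at day 21, so that in 16 of 19 HNKO libraries Phlda3 was above all WT libraries of its day. For comparison, 2.31%, 8.08%, 2.65% and 7.25% of all tested genes were higher in HNKO without overlap at days 3, 6, 12 and 21. Phlda3 had a log2 fold change of 0.94 ± 0.41 (SE) at day 3, which was not called (adjusted p = 0.178). It was called at day 6, with 1.602 ± 0.46 (SE, adjusted p = 0.0189), at day 12, with 1.33 ± 0.41 (SE, adjusted p = 0.0392), and at day 21, with 2.38 ± 0.46 (SE, adjusted p = 0.00433). The value was 1.56 (SE 0.22, 95% interval 1.12 to 2.01, adjusted p = 1.26e-06) over the mean of the days. The calls at single days rested on few mice. Without HNKO library 37 the value of day 21 was 1.47 (adjusted p = 0.352), in a fit where the number of all genes called at day 21 fell to 13 from 634. Without HNKO library 29 or WT library 10 that of day 6 was 1.22 or 1.47 (adjusted p = 0.118 and 0.06718), and the call of day 12 was lost in 7 of 11 fits that left out 1 library.

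Cdkn1a encodes p21, the inhibitor of cyclin-dependent kinases through which p53 halts the cell cycle. In WT livers of day 3 its level was 1.66, 1.34, 1.15, 1.01 and 1.38 log2 CPM, and in HNKO it was 4.10, 2.92, 0.998, 2.30 and 3.13 log2 CPM. At day 6 it was -0.38, -0.16, 2.50 and 1.40 log2 CPM in WT and 1.44, 1.26, 4.38, 3.00 and 1.66 log2 CPM in HNKO. At day 3, 4 of 5 HNKO libraries were above all WT libraries and 1 was below them, and at day 6 the groups overlapped. At day 12 the WT libraries held both the lowest and the highest WT level of all days, with 2.34, 2.36, -0.74, 1.68 and 3.54 log2 CPM, and the 6 HNKO libraries lay within them, between 1.18 and 3.31 log2 CPM (median 2.18). At day 21 the level was 1.11, 0.56, 0.70, 1.16 and 1.16 log2 CPM in WT and 3.55, 1.58 and 1.32 log2 CPM in HNKO, and the genotypes did not overlap. The log2 fold change was 1.72 (SE 0.63) at day 3, 1.61 (SE 0.69) at day 6, -0.02 (SE 0.58) at day 12 and 1.61 (SE 0.71) at day 21. None of these was called (adjusted p = 0.106, 0.120, 0.989 and 0.212 in order). Single libraries moved these values. At day 6 the log2 fold change was 0.7177 without HNKO library 29 and 2.42 without WT library 27, where it was called (adjusted p = 0.04235), and at day 21 it was 0.53 without HNKO library 37. The mean over the days was 1.23 (SE 0.33, 95% interval 0.57 to 1.89, adjusted p = 0.00317). That call was kept in each of the 38 fits that left out 1 library, but not in a fit without HNKO libraries 2, 29 and 37 together, where the log2 fold change was 0.62 (adjusted p = 0.120). These are the HNKO libraries that ranked highest for Cdkn1a. At day 12 the difference of means in log2 CPM was 0.37 over all libraries. Within a series of library numbers it was 1.04 among libraries 1 to 21 and -0.56 among libraries 22 to 41. These series held 3 and 2 WT libraries, with the lowest WT level (library 16) in the first and the highest (library 34) in the second. Each value leaned on that 1 library, so the sign cannot be tied to the series.

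Zmat3, a zinc finger protein that binds RNA and acts in splicing and mRNA stability, had a smaller difference with less spread. In WT its level was 2.89, 2.78, 2.66, 2.39 and 2.50 log2 CPM at day 3 and 2.40, 2.21, 2.31 and 2.37 log2 CPM at day 6. In HNKO it was 3.41, 3.304, 2.77, 3.18 and 3.12 log2 CPM at day 3 and 2.69, 2.47, 3.21, 3.28 and 2.88 log2 CPM at day 6. The genotypes did not overlap at day 6, and 4 of 5 HNKO libraries were above all WT libraries at day 3. At day 12 the level was 3.15, 2.88, 3.03, 3.02 and 3.39 log2 CPM in WT and 3.01 to 3.72 log2 CPM in HNKO (median 3.255). At day 21 it was 3.20, 2.89, 2.93, 3.35 and 3.12 log2 CPM in WT and 4.02, 3.55 and 3.398 log2 CPM in HNKO, again without overlap. Over all days 15 of 19 HNKO libraries were above every WT library of their day. At day 6 Zmat3 was called (adjusted p = 0.0165), with a log2 fold change of 0.62 ± 0.17 (SE). This call was lost without WT library 10 (adjusted p = 0.05386) or HNKO library 29 (adjusted p = 0.06232). Days 3, 12 and 21 were not called in the main edgeR fit, with log2 fold changes of 0.53 ± 0.16, 0.25 ± 0.15 and 0.58 ± 0.18 (SE), and adjusted p-values of 0.0501, 0.307 and 0.0654. Day 3 was called in 4 alternatives, DESeq2 among them (adjusted p = 0.0348), and in 2 fits that left out 1 library. Day 21 was called by DESeq2 (adjusted p = 0.0401) and by edgeR without HNKO library 40 (adjusted p = 0.0393). The mean over the days was 0.49 (SE 0.08, 95% interval 0.32 to 0.66, adjusted p = 1.94e-05).

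Bax encodes the protein that opens the outer mitochondrial membrane in apoptosis. The WT libraries were close to each other, at 3.303, 3.14, 3.09, 3.34 and 3.10 log2 CPM at day 3 and 3.265, 3.24, 3.38 and 3.22 log2 CPM at day 6. HNKO libraries had 3.95, 3.83, 3.31, 3.63 and 3.56 log2 CPM at day 3 and 3.27, 3.63, 4.402, 3.65 and 3.56 log2 CPM at day 6, and at each of these days 4 of 5 were above every WT library. At day 12 the level was 3.37, 3.258, 3.33, 2.97 and 3.43 log2 CPM in WT and 3.25 to 3.88 log2 CPM in HNKO (median 3.37). At day 21 it was 3.259, 3.21, 2.97, 3.03 and 3.02 log2 CPM in WT and 3.85, 3.24 and 3.36 log2 CPM in HNKO. The groups overlapped at both days, with 2 of 6 and 2 of 3 HNKO libraries above all WT libraries. At day 6 Bax was called (adjusted p = 0.0438), with a log2 fold change of 0.49 ± 0.16 (SE). Days 3, 12 and 21 were not called in the main edgeR fit, with 0.47 ± 0.15, 0.18 ± 0.15 and 0.41 ± 0.17 log2 (SE), and adjusted p-values of 0.0644, 0.491 and 0.195. Leaving out 1 library gave 0.08 to 0.24 log2 at day 12 and 0.22 to 0.55 log2 at day 21. Without HNKO library 4 Bax was called at day 3 (edgeR adjusted p = 0.0307). The call at day 6 was close to the threshold, and it was lost in 6 of 9 fits that left out 1 library (without WT library 8, 10, 27 or 28 or HNKO library 7 or 29) and in 4 of 9 other alternatives (no filter, all 40 libraries, only the groups of the day, and without HNKO libraries 2, 29 and 37). The lowest value of the 9 fits was 0.28 (adjusted p = 0.276), without HNKO library 29. The mean over the days was 0.39 (SE 0.08, 95% interval 0.22 to 0.55, adjusted p = 0.00025). Of the stretches of 51 bases (the read length) in Bax transcripts, 8.44% are shared with Gm45808, and 8.43% of those of Cdkn1a with transcripts of other genes, chiefly AC167363.2 on the opposite strand. These partners had a median of 0 and 4 counts per library. The share was 3.76% or less in the 8 other genes.

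The 3 genes nearest to p53 in its own control did not pass the test in any comparison. The level of Trp53 ranged from 3.39 to 4.02 log2 CPM in WT and from 3.261 to 4.20 log2 CPM in HNKO. Its log2 fold changes were 0.22, 0.23, 0.09 and -0.20 at days 3, 6, 12 and 21, and 0.08 (95% interval -0.05 to 0.22, adjusted p = 0.332) over the mean of the days. Mdm2, the ubiquitin ligase that is both a target and the main inhibitor of p53, lay between 4.99 and 5.46 log2 CPM in WT and between 4.96 and 5.69 log2 CPM in HNKO. Its log2 fold changes were 0.04, 0.15, -0.18 and 0.07, and 0.02 (95% interval -0.08 to 0.12, adjusted p = 0.777) over the mean of the days. Ccng1 encodes cyclin G1, which recruits a phosphatase to MDM2, and lay between 5.63 and 6.19 log2 CPM in WT and between 5.64 and 6.40 log2 CPM in HNKO. Its log2 fold changes were 0.14, -0.07, 0.05 and 0.16, and 0.07 (95% interval -0.03 to 0.18, adjusted p = 0.305) over the mean of the days. These intervals leave room for a difference of at most 0.22 log2 in either direction over the mean of the days. The promoter windows of all 3 genes held the p53 motif shown above.

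In the main edgeR fit none of the stress genes among the members was called in either direction. Gdf15 encodes a secreted cytokine of the TGF-beta family that p53 and the integrated stress response both induce. In WT its level was 4.82, 4.59, 3.52, 4.36 and 2.68 log2 CPM at day 3, 2.34, 4.02, 4.72 and 3.50 at day 6, 4.72, 4.57, 4.11, 4.27 and 3.38 at day 12, and 3.57, 3.99, 3.64, 5.50 and 3.56 at day 21. In HNKO it was 3.598, 3.37, 3.07, 3.93 and 3.34 log2 CPM at day 3, 2.48, 2.68, 4.23, 3.12 and 3.65 at day 6, 2.27 to 4.28 (median 3.75) at day 12, and 4.37, 3.37 and 3.45 at day 21. None of the 19 HNKO libraries was above every WT library of its day, and the groups overlapped at all days. The log2 fold change was -0.69, -0.48, -0.55 and -0.47 at days 3, 6, 12 and 21. Leaving out 1 library moved the value of day 6 between -0.80 and -0.04. Over the mean of the days it was -0.55 (SE 0.23, 95% interval -1.01 to -0.09, edgeR adjusted p = 0.0547), just outside the threshold. There Gdf15 was called as lower by DESeq2 (adjusted p = 0.0499), in 4 alternatives in all and in 11 fits that left out 1 library. Trp53inp1, a p53-induced nuclear protein of the stress response and autophagy, ranged from 6.39 to 7.94 log2 CPM in WT and from 6.21 to 7.91 log2 CPM in HNKO. Its log2 fold change over the mean of the days was -0.16 (95% interval -0.47 to 0.15, adjusted p = 0.431). Sesn2 encodes sestrin 2, an inhibitor of mTORC1 under stress, and lay between 2.86 and 3.97 log2 CPM in WT and between 3.19 and 4.03 log2 CPM in HNKO. Its log2 fold change over the mean of the days was 0.12 (95% interval -0.03 to 0.27, adjusted p = 0.225).

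Whether the genotype difference changed over the time course was tested as a genotype by day interaction. It was called for 0 of the 10 genes by edgeR (adjusted p = 0.9998 for each), with 0 at an unadjusted p under 0.05, and for 0 by DESeq2. Of all tested genes 0% were called by edgeR, 4.76% had an unadjusted p under 0.05, and DESeq2 called 16 genes. The lower Cdkn1a difference of day 12 was therefore not shown to differ from that of the other days. Within a genotype, 1 of the 10 genes changed between days. This was Zmat3, in WT (F = 9.78, adjusted p = 0.00439 in edgeR, where 5.84% of all tested genes were called) and in HNKO (F = 6.36, adjusted p = 0.0278 in edgeR, where 7.9% were called). Its WT group mean was 2.64, 2.32, 3.09 and 3.10 log2 CPM at days 3, 6, 12 and 21, and its HNKO mean 3.16, 2.91, 3.33 and 3.65 log2 CPM. Day 6 was the lowest in both genotypes. Day 21 was the highest in HNKO, whereas days 12 and 21 were nearly equal in WT.

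The levels of the members were uneven over the HNKO mice. Each HNKO library was set against the WT mean of its day, and the 19 differences were ranked for each gene. Library 29 of day 6 was among the highest 3 of 19 for 9 of the 10 genes, library 37 of day 21 for 7 and library 2 of day 3 for 6, whereas the other 16 libraries were so for 0 to 2 genes. These ranks were not computed for all tested genes, so they cannot be called particular to the members. Without library 29, 1126 of all genes were called at day 6 in place of 2596, and without library 37, 13 at day 21 in place of 634. At day 3 it was 331 without library 2 and 322 without library 23, in place of 945. Libraries 29 and 37 were above the WT mean for all 10 genes. The same 3 libraries had the highest summed bile duct and progenitor markers of their days, at 763.9, 494.6 and 415.2 CPM. Their stellate cell and fibroblast markers summed to 1063, 815.8 and 730.9 CPM, which was the highest of the day in libraries 29 and 37, whereas HNKO library 23 had 814.4 CPM at day 3. The sum of 11 proliferation genes was also the highest of the day in these 3 libraries, at 136.0, 126.8 and 139.1 CPM in libraries 29, 37 and 2. Ccnd1, which alone gave 37.8 to 87.9% of the sum of all 12 listed genes in each library and was not called in any comparison, is left out of it. The sum of macrophage and leukocyte markers was the highest of the day in libraries 29 and 37, at 720.6 and 388.9 CPM. Hepatocyte markers of library 29 were the lowest of all libraries, at 68930 CPM. The part of other cell types and of proliferating cells in the level of the members was not tested. Without libraries 2, 29 and 37, a fit chosen after the data had been seen, Phlda3, Zmat3 and Bax were called over the mean of the days with log2 fold changes of 1.17, 0.42 and 0.27 (edgeR adjusted p = 2.461e-05, 0.0003443 and 0.001677). Gdf15 was called as lower there (-0.73, adjusted p = 0.0266) and Cdkn1a was not called. As these libraries ranked among the highest for most members, and libraries 29 and 37 the highest for Gdf15, lower values in that fit follow from the choice of libraries, and neither change is an independent result.

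**Figure D3:**
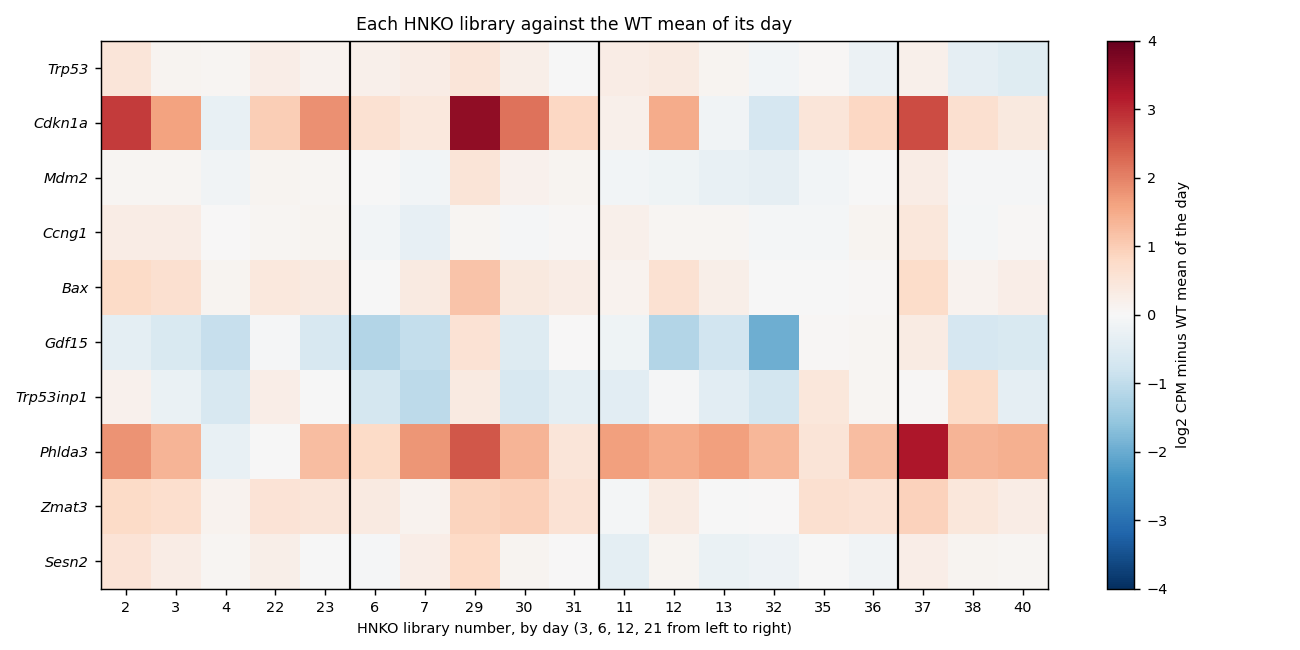
Difference in log2 CPM between each HNKO library (columns, by day, with black lines between days) and the WT mean of its day for each of the 10 genes (rows), with red for higher and blue for lower. Libraries 29 and 37 are red in each row or nearly white, the Phlda3 row is red in most columns, and the Gdf15 row is mostly blue.

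The libraries were also split by their numbers, 1 to 21 and 22 to 41, as each of these 2 series of numbers covers the days in order. What the series stand for is not given in the sources used here. The split allowed 7 comparisons of HNKO with WT within a series, as the first series has no HNKO library of day 21 that passed quality control. Bax, Phlda3 and Zmat3 were higher in HNKO in 7 of 7 comparisons, with differences of means of 0.07 to 0.58, 0.55 to 1.87 and 0.14 to 0.79 log2. How many of all tested genes were higher in 7 of 7 was not counted. The comparisons use the same libraries as the calls above and are not independent of them. Cdkn1a was higher in 6 of 7 and Gdf15 in 1 of 7. Trp53 and Sesn2 were higher in 5, Mdm2 and Ccng1 in 4 and Trp53inp1 in 2.

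Whether the members varied together between mice of the same genotype and day was examined next. Each library's deviation from the mean of its group in log2 CPM was correlated with the Cdkn1a deviation, in 9 relations tested by permutation within groups (two-sided, 100000 permutations, adjusted over the 9 relations). Over 38 libraries the Pearson correlation was called for all 9 genes, from r = 0.32 for Ccng1 to r = 0.66 for Sesn2. Of the 20296 other tested genes 21.2% had an r at or above that of Ccng1, and their median r was 0.04 against 0.54 for the 9 members. Zmat3 followed Cdkn1a at r = 0.63 and rho = 0.68 (permutation p = 0.00014 and 7e-05, adjusted p = 0.00063 each), Bax at r = 0.61 and rho = 0.52 (permutation p = 0.00119 and 0.00289, adjusted p = 0.00268 and 0.00867) and Mdm2 at r = 0.60 and rho = 0.51 (permutation p = 0.00102 and 0.00414, adjusted p = 0.00268 and 0.00931). By Spearman's rho 8 of 9 were called, without Ccng1. Without the 2 libraries farthest from the median (WT library 16 of day 12 and HNKO library 29), 8 of 9 were called by r and 6 of 9 by rho. There 14.9% of all tested genes had an r at or above the lowest of those called. Zmat3 stood at r = 0.65, Bax at r = 0.64, Mdm2 at r = 0.64 and Sesn2 at r = 0.54. The deviations were still taken from group means that included these 2 libraries, so their influence was not fully removed.

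Within the 19 HNKO libraries alone all 9 relations were called, with r between 0.57 and 0.85, where 9.68% of all tested genes had an r at or above the lowest of these. Within the 19 WT libraries 0 of 9 were called, with r between -0.09 and 0.60 (lowest adjusted permutation p = 0.151, for Sesn2). Whether the genotypes differed in these correlations was not tested. The relations in HNKO rested in part on libraries 2, 29 and 37, which ranked highest for Cdkn1a, so that leaving them out also narrows its range. In the other 16 HNKO libraries 2 of 9 were called by r, Mdm2 (r = 0.77, rho = 0.66, permutation p = 0.0036 and 0.0151, adjusted p = 0.0219 and 0.068) and Zmat3 (r = 0.75, rho = 0.82, permutation p = 0.00486 and 0.00161, adjusted p = 0.0219 and 0.0145), and 1 by rho (Zmat3). An r at or above that of Zmat3 was found for 0.419% of all tested genes. Phlda3, the gene with the largest genotype difference, had r = 0.39 with Cdkn1a there. Mdm2, which was not called between the genotypes, varied with Cdkn1a between these HNKO mice.

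**Figure D4:**
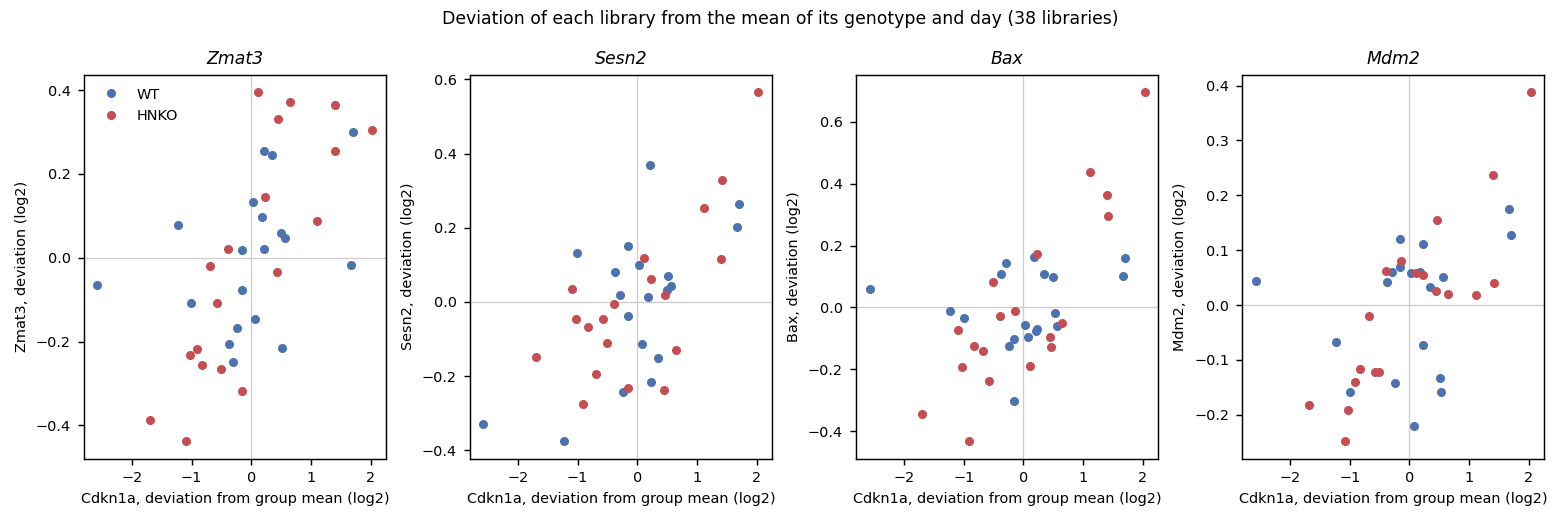
Deviation of Zmat3, Sesn2, Bax and Mdm2 (vertical axes, log2) from the mean of each genotype and day against that of Cdkn1a (horizontal axis, log2) in 38 libraries, with WT in blue and HNKO in red. The r over all points is 0.63, 0.66, 0.61 and 0.60, and the HNKO library at the far right is library 29, with a Cdkn1a deviation of 2.03.

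Among all other tested genes, 4 of the 5 whose log2 CPM followed Cdkn1a most closely over the 38 libraries were Tnfaip1 (r = 0.89), Fbxo6 (r = 0.85), Cxadr (r = 0.84) and Pdgfc (r = 0.84). They were chosen for this likeness, so the values are a description. None of these 4 is in the lists of p53 targets described next.

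Further p53 targets were called in both directions. Of 18 further targets of arrest and repair, 6 were higher, 2 were lower and 10 were not called over the mean of the days, with a median log2 fold change of -0.03. Psrc1 and Ckap2, which act on the mitotic spindle, had log2 fold changes of 2.28 (SE 0.35) and 2.11 (SE 0.40). Their levels in WT were low, with group means of -2.70 to -1.64 log2 CPM for Psrc1 and -1.65 to 0.27 for Ckap2, which limits the precision of these folds. Gtse1, an S and G2 phase protein that restrains p53, had one of 0.96 (SE 0.23), and Btg2, an antiproliferative cofactor of mRNA decay, one of 0.54 (SE 0.15). At single days Psrc1 was called at day 21 only, and Ckap2, Gtse1 and Btg2 were never called. Of 12 further targets in cell death, 5 were higher, 2 were lower and 5 were not called, with a median of 0.22. Tnfrsf10b, the death receptor for TRAIL, was higher at each of the 4 days, with log2 fold changes of 1.76, 2.38, 1.74 and 2.19 (edgeR adjusted p = 0.0209, 0.00231, 0.0154 and 0.0127) and a mean of 2.01 (SE 0.24). Eda2r, a receptor of the same family, had a mean log2 fold change of 1.27 (SE 0.20) and was called at days 3 and 12, and Apaf1, the core of the apoptosome, one of 0.60 (SE 0.10), called at day 6. Ei24, a membrane protein of the endoplasmic reticulum that acts in autophagy, was lower, at -0.39 (SE 0.05), and was called at days 6, 12 and 21. For all tested genes the median was -0.01 and 36.4% were called.

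Regulators of p53 were called in both directions. Of 15 listed, 12 were tested, of which 3 were higher and 3 lower over the mean of the days, with a median log2 fold change of 0.02, and Cdkn2a, Trp63 and Trp73 had too few counts. Of all tested genes 19.2% were higher and 17.3% lower. The checkpoint kinases Chek1 and Chek2 had log2 fold changes of 0.96 (SE 0.20) and 0.39 (SE 0.11), and Trp53bp1, which binds at double-strand breaks, one of 0.20 (SE 0.05). Sirt1, the NAD-dependent deacetylase that has p53 among its substrates, was lower, at -0.20 (SE 0.04), and was called at day 3 (-0.29, edgeR adjusted p = 0.0429). Of 22 genes of DNA damage sensing and repair, 6 were higher and 3 lower, close to the 36.4% called among all tested genes, with a median of 0.06. Fancd2 (0.76, SE 0.16) and Brca1 (0.51, SE 0.11), which repair DNA by homologous recombination and are made in S phase, were higher, and Xrcc1 (-0.36, SE 0.05), a scaffold of single-strand break repair recruited by PARP1, was lower. At single days 0, 2, 1 and 1 of these 22 genes were called, where 4.66%, 12.8%, 7.82% and 3.12% of all tested genes were.

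Most genes of proliferation were higher in HNKO than in WT livers. Of 12 listed, 9 were higher over the mean of the days and none was lower, with a median log2 fold change of 1.35, where 19.2% of all tested genes were higher. At days 3, 6, 12 and 21, 1, 2, 1 and 3 were called as higher, where 2.95%, 8.42%, 4.56% and 2.21% of all tested genes were. Top2a had a log2 fold change of 1.56 (SE 0.26), the mitotic kinase Cdk1 one of 1.46 (SE 0.25), and the replication helicase subunits Mcm5 and Mcm2 ones of 1.25 (SE 0.18) and 0.89 (SE 0.15). Of the 5 other inhibitors of cyclin-dependent kinases, Cdkn2b (0.79, SE 0.22) and Cdkn2c (0.14, SE 0.05) were higher, and Cdkn1b (-0.15, SE 0.05) and Cdkn1c (-0.41, SE 0.14) were lower, where 36.4% of all tested genes were called, 17.3% as lower.

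The integrated stress response shares Gdf15 and Sesn2 as targets. Of 11 genes, 4 were higher and 1 was lower over the mean of the days, where 19.2% and 17.3% of all tested genes were, with a median log2 fold change of 0.20. The amino acid synthesis genes Asns and Psat1 had log2 fold changes of 1.67 (SE 0.31) and 1.22 (SE 0.26), Chac1, which degrades glutathione, one of 0.59 (SE 0.21), and Trib3, a pseudokinase that feeds back on the response, one of -0.52 (SE 0.14).

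**Figure D5:**
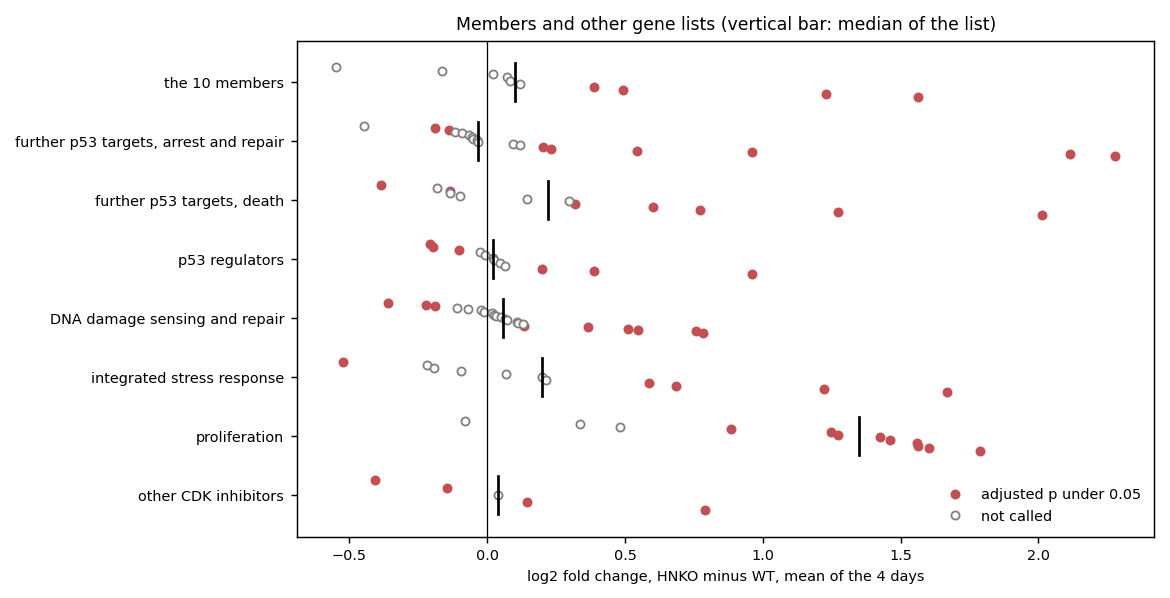
Log2 fold change of HNKO against WT, mean of the 4 days (horizontal axis), of the 10 genes and of the genes in 7 further lists (rows), with red points for an adjusted p under 0.05 in edgeR, open points for genes not called and vertical bars for the median of each list. The medians of the p53 lists lie between -0.03 and 0.22, whereas that of the proliferation list is 1.35.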

How the data were processed

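The deposited table holds raw read counts per gene, made by the authors with STAR 2.7.2b and featureCounts 1.6.4 on GRCm38 (mm10), per the submitters' processing notes, from 51-base paired reads of stranded libraries. The strand setting of the counting is not given in the sources used here. No values were normalized before deposit, and libraries were matched to genotype and day by their titles.

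Low genes were removed with edgeR's filterByExpr (minimum count 10, minimum total 15, minimum proportion 0.7). TMM factors were computed, and the model had a mean for each of the 8 combinations of genotype and day, over 38 libraries. HNKO was compared with WT by the quasi-likelihood test of edgeR. This was version 4.0.16 under R 4.3.3, set to its legacy mode because the study used edgeR 3.26.0. The comparisons were made at each day, over the mean of the 4 days and as an interaction. P-values were adjusted by Benjamini-Hochberg over 20297 genes, and a gene was called at an adjusted p under 0.05. SE are those implied by the test, and intervals are at 95%. Log2 CPM used a prior count of 2. FPKM used exon lengths of GENCODE M21, and promoter windows came from RefSeq. Depth was 16151037 to 64181492 counts, and Phlda3 and Cdkn1a had the fewest counts. Nothing in the labels ties libraries to litters. Of 74 pairs of libraries within a group, none agreed within sampling noise (lowest chi-square per gene 8.95), so each was counted as 1 replicate.

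The members and lists were chosen with earlier results of these data known. Beside the members and Nampt, the genes named were up to 4 per list with the smallest p over the mean of the days, the 5 genes most correlated with Cdkn1a, and the cell type markers that were called for hepatocytes and endothelium. Of these, 2 genes are not reported here. Alternatives were RLE size factors in edgeR, DESeq2 1.42.0, all genes with at least 1 count, a minimum of 10 counts in all libraries, inclusion of the 2 failed libraries (40 in all), separate fits of each day, the non-legacy mode of edgeR, a covariate for library numbers 1 to 21 or 22 to 41, and leaving out libraries 1 at a time. A fit without HNKO libraries 2, 29 and 37 was added after the data had been seen. The edgeR and DESeq2 steps were tested on simulated data.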

Additional observations from a re-analysis of the deposited data

Results flagged for a closer look

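Of 70 groups tested, meaning the 10 genes in each group of 4 or more libraries, 5 held a library far from the others of its group, and chance gives about 1 in 20 groups. Trp53 was highest in WT library 14 of day 12, at 4.02 log2 CPM against 3.83 in the nearest library. Mdm2 was lowest in WT library 26 of day 3, at 4.99 log2 CPM against 5.25, and in HNKO library 4 of day 3, at 5.07 log2 CPM against 5.28. Gdf15 was highest in WT library 39 of day 21, at 5.50 log2 CPM against 3.99, and without it the log2 fold change of Gdf15 at day 21 was 0.11 in place of -0.47. Phlda3 was lowest in HNKO library 35 of day 12, at 0.25 log2 CPM against 0.97.

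The 2 HNKO libraries of day 21 described as failing quality control, numbers 17 and 18 with 12287423 and 15935527 counts, were in none of the comparisons. On the scale of all 40 libraries Cdkn1a was 2.57 log2 CPM in library 17 and 2.05 log2 CPM in library 18, both above the highest WT library of the day at 1.18 log2 CPM. In library 18, Phlda3 (0.83 against at most 0.20 log2 CPM in WT) and Mdm2 (5.32 against 5.26) were also above every WT library, and Zmat3, at 3.38 log2 CPM, was above the highest WT library by less than 0.01. In library 17, Trp53inp1 (7.68 against 7.56 log2 CPM) and Sesn2 (3.91 against 3.75) were above every WT library. Other values lay below every WT library. Gdf15 did so in both libraries (-0.0021 and 1.83 against at least 3.57 log2 CPM), as did Mdm2 (4.30 against 5.01), Bax (2.57 against 2.98) and Zmat3 (2.45 against 2.895) in library 17, and Sesn2 (2.55 against 3.13) and Trp53 (3.47 against 3.65) in library 18. Library 17 also had 0 counts of Trp53 and 1 count of Phlda3, against 200 and 31 counts in library 18, so its levels of single genes are uncertain.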

How the results depend on the processing

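The calls of Phlda3, Zmat3 and Bax over the mean of the days were kept in 38 of 38 fits that left out 1 library and in 8 of 8 other alternatives, and that of Cdkn1a in 38 and in 7, the exception being the fit without HNKO libraries 2, 29 and 37 (0.62, adjusted p = 0.120). Single days were less stable. Of the 10 genes, the count called at day 3 was 1 in place of 0 with DESeq2, with at least 10 counts in every library, with the non-legacy mode of edgeR and with a covariate for the series of library numbers (Zmat3 each time). At day 6 it was 2 with no filter, 0 with all 40 libraries, 1 with only the 2 groups of the day and 1 without libraries 2, 29 and 37, in place of 3. At day 12 it was 0 with no filter and 0 with all 40 libraries, in place of 1. At day 21 it was 2 with DESeq2 and 0 without libraries 2, 29 and 37, in place of 1. The day effect of Zmat3 within HNKO was lost with all 40 libraries (0 in place of 1). Leaving out 1 library gave 0 to 2 genes at day 3 (2 without HNKO library 4, 1 without WT library 1), 0 to 3 at day 6 (0 without WT library 10 or HNKO library 29), 0 to 1 at day 12 (0 without HNKO libraries 11, 12 or 13 or WT libraries 15, 16, 33 or 34), 0 to 2 at day 21 (0 without HNKO library 37, 2 without HNKO library 40), 4 to 5 over the mean of the days and 0 for the interaction. Gdf15 joined as lower over the mean of the days in 11 of the 38 fits and in 4 of 8 other alternatives (DESeq2, all 40 libraries, the series covariate, and without libraries 2, 29 and 37). The number of all genes called moved in the same fits. At day 6 it was 2596, and 1925 with no filter, 1321 with all 40 libraries, 1325 with only the 2 groups and 1261 without libraries 2, 29 and 37. At day 12 it was 1588, and 1086 with no filter and 624 with all 40 libraries. At day 21 it was 634, and 994 with DESeq2, 641 without library 40, 13 without library 37 and 17 without libraries 2, 29 and 37, so that the loss of a member there is no result about the members. The cause of these changes was not tested.

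Signs were reversed only in results that were not called. Cdkn1a at day 12 became 0.0041 with DESeq2, 0.0047 with at least 10 counts and 0.0373 with the series covariate. Mdm2 became -0.04 at day 21 and -0.0104 over the mean of the days with all 40 libraries, and -0.0371 and -0.0266 without libraries 2, 29 and 37, where Ccng1 at day 21 became -0.0032. Trp53inp1 at day 21 became -0.019 with the series covariate. Leaving out 1 library gave ranges across 0 of -0.0134 to 0.0807 for Mdm2 and -0.2121 to 0.0151 for Trp53inp1 at day 3, -0.3059 to 0.5436 for Cdkn1a at day 12 (above 0 in 5 of 11 fits), and -0.0374 to 0.1612 for Mdm2, -0.0035 to 0.2944 for Ccng1, -0.8549 to 0.1059 for Gdf15 and -0.1645 to 0.4126 for Trp53inp1 at day 21. Another scaling (RLE) changed no direction. No paired analysis was possible because the library numbers of the groups are all different and nothing in the labels pairs the mice. Phlda3 and Cdkn1a had as few as 11 counts in a library, which limits the precision of their folds.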
